A study of Rattus norvegicus with 6 samples.

Results

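The transcripts of 10 liver transcription factors that sense drugs, bile acids, sterols and fatty acids, or that partner such sensors, were measured in rats dosed with an activator of one of them. The 10 are Nr1i2 (the pregnane X receptor, PXR), Nr1i3 (the constitutive androstane receptor, CAR), Ahr, Rxra, Hnf4a, Nr1h4 (FXR), Nr0b2 (SHP), Nr5a2 (LRH-1), Nr1h3 (LXR alpha) and Ppara. They were found by matching the transcript accession of each non-control array probe to the rat gene symbols, which gave 13 of 30367 probes. All 10 genes had at least 1 probe, and all 13 probes were well above background on every array, so they stood among 16389 tested genes. The question was whether the sensors themselves change in level when PXR is activated for a week.

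Livers came from 6 male Wistar Hannover rats (RCCHanTM:WIST), bought at 4 weeks of age and kept for 1 week before dosing. The 3 treated rats received pregnenolone-16α-carbonitrile (PCN), a synthetic steroid that activates rodent PXR, by gavage in corn oil at 100 mg/kg per day for 7 days. The 3 control rats received corn oil alone over the same 7 days. Each liver RNA was hybridised to 1 Agilent 1-colour array.

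PXR and CAR are nuclear receptors that bind foreign compounds and steroids, pair with RXR alpha, and switch on P450 enzymes, conjugating enzymes and transporters in hepatocytes. The other members form a connected network in the same cell. AHR senses planar aromatic compounds, FXR senses bile acids and induces SHP, SHP represses LRH-1 on bile acid synthesis genes, LXR alpha senses oxysterols, and PPARA senses fatty acids. HNF4A is a master regulator of the hepatocyte programme and is needed for the expression of many of these genes. Apart from AHR, which belongs to another protein family, all 10 are nuclear receptors.

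The 75th percentile of the processed signal, used to scale each array, lay between 488 and 627 on the PCN arrays and between 633 and 758 on the control arrays. Between 61.6% and 65.8% of spots on the PCN arrays and between 65.5% and 68.9% on the control arrays were well above background. The PCN arrays shared 1 slide and 1 scan and the control arrays another, and the effects of slide and of treatment cannot be told apart. Of 10 hepatocyte markers 0 passed the test (limma with Benjamini-Hochberg adjustment over all tested genes, adjusted p under 0.05), with a median log2 fold change of 0.02 that turned to −0.23 with scaling to spike-in RNA. Their summed scaled signal ranged from 1901 to 2527 on the PCN arrays and from 2140 to 2267 on the control arrays. For all the marker counts here, 19.9% of all tested genes were called, 4.37% higher and 15.5% lower with PCN. Of 10 Kupffer cell markers 0 passed, with a median of −0.38 and a summed scaled signal of 47.7 to 68.8 on the PCN arrays and 66.3 to 76.8 on the control arrays. All 10 had a lower mean with PCN (log2 fold changes from −0.52 to −0.22), and spike-in scaling gave 2 lower calls. Of 4 tested lymphocyte markers 2 fell, with sums of 0.358 to 0.432 on the PCN arrays and 0.535 to 0.650 on the control arrays, and their median of −0.57 turned to 0.07 with normexp. The 2 were Cd3d and Lck, and for Lck only 1 of 3 PCN arrays had a signal well above background. Its call was lost on removing control replicate 2 or 3, or PCN replicate 2 or 3 (limma adjusted p between 0.0563 and 0.0688). Of 10 stellate cell markers Rgs5 rose (0.96 ± 0.17), Lrat (−1.33 ± 0.22) and Acta2 (−0.74 ± 0.16) fell, and 7 did not pass, with sums of 12.9 to 15.1 on the PCN arrays and 14.0 to 15.0 on the control arrays. Acta2 was called in 12 of 19 alternatives, Rgs5 and Lrat in all 19. Of 5 tested endothelial markers Cdh5 fell (−0.49 ± 0.14, limma adjusted p = 0.0496), a call lost whichever array was left out (adjusted p up to 0.134). The part of these other cells in the results was not tested. The tissue was whole liver, in which fewer cells of a type and less RNA per cell cannot be told apart.

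Of the 10 genes, Hnf4a rose, Nr0b2 fell, and 8 did not pass the test, PXR and CAR among them. That is 2 of 10 called, where 19.9% of all tested genes were called, 4.37% higher and 15.5% lower with PCN. The groups did not overlap in 4 of the 10 genes (Hnf4a, Rxra, Nr1h4 and Nr0b2), against 41.4% of all tested genes (14.7% higher and 26.7% lower). Both shares lie close to the background of this comparison. An unadjusted p under 0.05 was reached by 3 of the 10, against 34.5% of all tested genes. The median log2 fold change of the 10 was 0.10, turning to −0.14 with scaling to spike-in RNA, and that of all tested genes was −0.06. Values below are scaled signals (the processed signal divided by the 75th percentile of the array), and fold changes are differences of mean log2 scaled signal, PCN minus control, with the standard error (SE) from limma and 3 rats per group. Signals of different genes come from different probes and are not compared with each other.

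**Figure D1:**
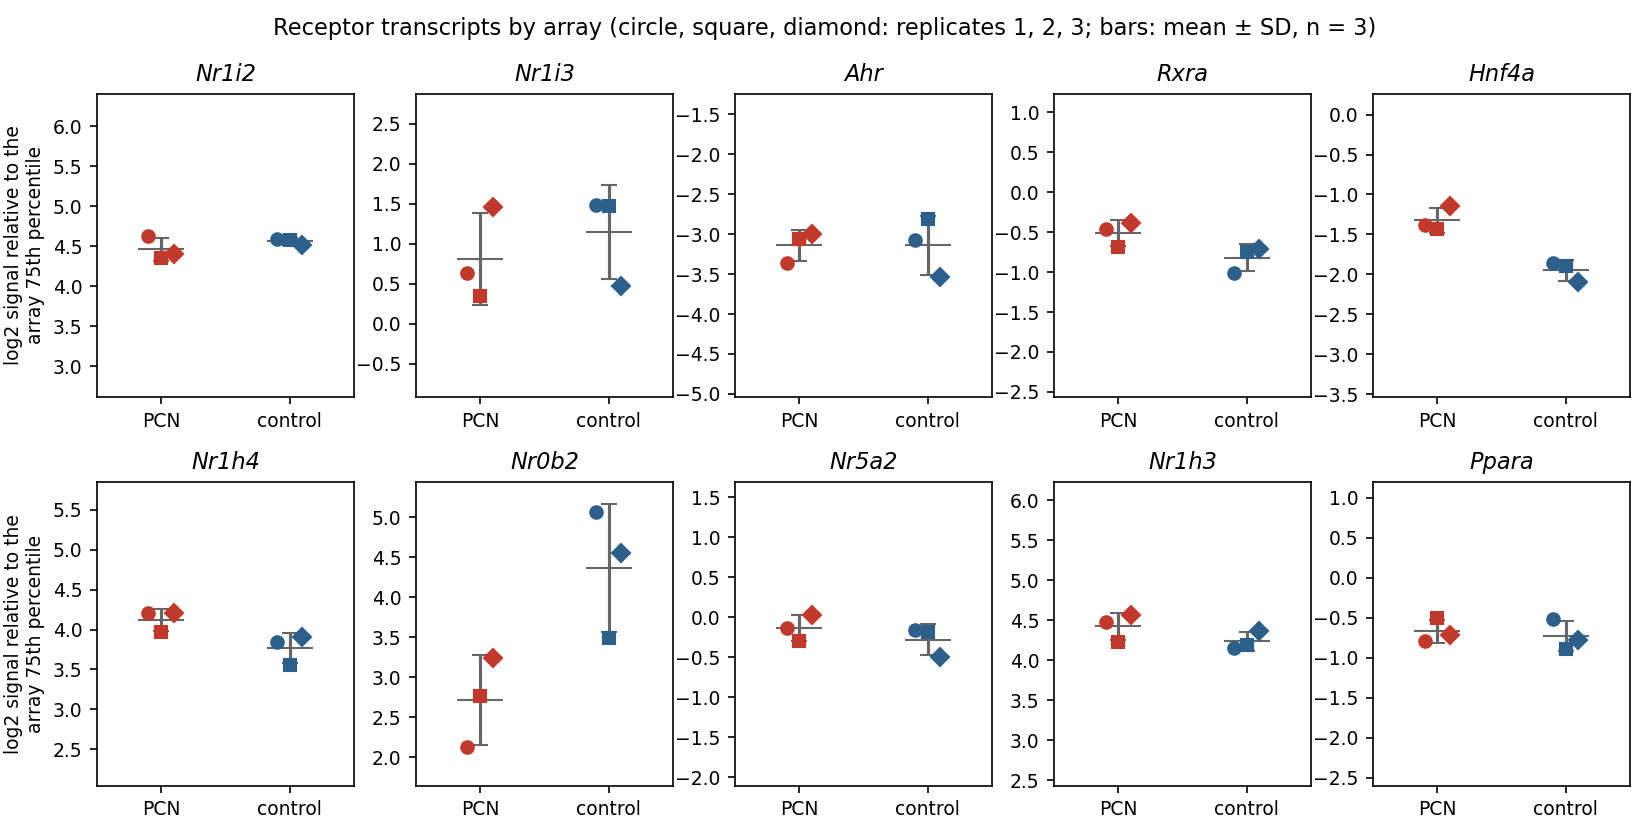
Log2 scaled signal (vertical axis, each panel spanning the same number of log2 units) of the 10 receptor genes on each array, PCN left and control right, with points for single rats and bars for mean ± SD (n = 3 per group). Nr1i2 is tightly grouped on all 6 arrays, Nr1i3 is spread widely in both groups, Hnf4a is higher on all 3 PCN arrays, and Nr0b2 is lower on all 3 PCN arrays.

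Nr1i2, the transcript of the receptor that PCN binds, did not pass the test, and its interval was narrow under the scaling used. Its scaled signal was 24.7, 20.4 and 21.2 in PCN rats 1 to 3, against 24.1, 24.0 and 22.8 in control rats 1 to 3. The highest array of the 6 and the lowest were both PCN arrays, so the groups overlapped. The log2 fold change was −0.10 ± 0.11 (limma adjusted p = 0.561), with a 95% interval from −0.36 to 0.16, which corresponds to a level between 0.778 and 1.12 times that of controls. Nr1i2 was thus among the better measured members. Its 2 spots per array differed by an SD of only 0.01 on the log2 scale, and its within-group SD of 0.11 was below the 0.17 that is the median over all tested genes. The interval does not cover the choice of scaling. Scaling to spike-in RNA gave −0.35 ± 0.14 (limma adjusted p = 0.0998), near the lower end of that interval. Quantile normalization gave −0.21 and median scaling 0.11 (limma adjusted p = 0.235 and 0.456), and Nr1i2 passed in none of these.

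The target genes set the scale of the response that this receptor level accompanied. Cyp3a23-3a1, the PCN-inducible P450 of the 3A subfamily, had mean log2 scaled signals of 8.25 in PCN rats and 3.94 in control rats, a 19.8-fold difference. Its proximal promoter is printed here because it carries the repeat through which PXR and RXR alpha are known to act on this gene. The window is the 250 bases before the annotated start in RefSeq, on GRCr8 chr12:14398804-14399053, minus strand, with the repeat in capitals.
Cyp3a23-3a1: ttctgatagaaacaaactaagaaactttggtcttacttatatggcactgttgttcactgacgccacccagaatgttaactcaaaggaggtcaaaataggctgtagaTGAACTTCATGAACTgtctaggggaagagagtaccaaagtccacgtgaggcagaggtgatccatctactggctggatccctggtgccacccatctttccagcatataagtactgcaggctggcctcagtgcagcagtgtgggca
The capitals are the reverse complement of AGTTCA, any 3 bases and AGTTCA again, a direct repeat of that core, and the match begins 144 bases before the start. On either strand this repeat was found in 2 of 33469 rat promoter windows of the same length (0.00598%), those of Cyp3a23-3a1 and Cyp3a2, another P450 of the subfamily. Each arm of the repeat is also a match to the single core AGTTCA, which 12.2% of the windows hold. The Nr1i2 window holds 1 AGTTCA and no such repeat.

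Nr1i3, which encodes CAR, was the sensor with the widest spread between arrays. At its brighter probe the scaled signal was 1.55, 1.27 and 2.75 in PCN rats 1 to 3, against 2.81, 2.79 and 1.39 in control rats 1 to 3. In each group some rats lay near the upper value and others near the lower, 1 high and 2 low with PCN, 2 high and 1 low with corn oil, so the groups overlapped almost completely. PCN minus control was −0.33 ± 0.38 (limma adjusted p = 0.580), and its 95% interval, −1.23 to 0.56, allows anything from 0.428 to 1.48 times the control level. A fall to below 0.5 times the control level lies within this interval, so one of that size is not excluded with these 3 rats per group.

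The second Nr1i3 probe showed the same rats as high and low. It gave 0.660, 0.581 and 1.05 in PCN rats 1 to 3, against 1.18, 1.33 and 0.584 in control rats 1 to 3. Its log2 fold change was −0.40 ± 0.36 (limma over all tested probes, where 18.9% were called, adjusted p = 0.485). The log2 difference between the 2 probes stayed between −1.39 and −1.07 on the 6 arrays, while the brighter probe itself ranged over 1.14 log2 units. The 2 spots of this second probe differed within an array by an SD of 0.05, against an SD of 0.55 between arrays of a group. The within-group SD of Nr1i3 was larger than that of 95.9% of tested genes. The cause of this spread was not tested.

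Ahr, the aryl hydrocarbon sensor, had scaled signals of 0.0970, 0.120 and 0.125 in PCN rats, against 0.118, 0.143 and 0.0862 in control rats. The lowest and the highest values were both from control rats. The log2 fold change was 0.00 (−3.92e-04, SE 0.21, limma adjusted p = 0.999), with an interval from −0.49 to 0.49. Its 2 spots differed by an SD of 0.12 within an array, the largest such value among the members with 2 spots.

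Rxra encodes the partner that PXR, CAR, FXR, LXR alpha and PPARA share. Its scaled signal was 0.729, 0.620 and 0.766 in PCN rats, against 0.496, 0.597 and 0.613 in control rats. All 3 PCN values lay above all 3 control values, with a gap of only 0.02 log2 units between the nearest pair. The difference in log2 means was 0.31 ± 0.13 (95% interval −0.01 to 0.63), and it did not pass the test (limma adjusted p = 0.155). It passed with median scaling (0.52, limma adjusted p = 0.0302), a scaling that moves the median of all genes by 0.21. With spike-in scaling, which moves that median by −0.25, Rxra gave 0.06 (limma adjusted p = 0.764).

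Hnf4a was the member that rose, by 1.55-fold. Its scaled signal was 0.384, 0.369 and 0.452 in PCN rats, against 0.275, 0.270 and 0.233 in control rats. The groups were well apart, with 0.43 log2 units between the lowest PCN rat and the highest control rat, and the spread within each group was small (SD 0.15 with PCN and 0.13 in controls). The log2 fold change was 0.63 ± 0.13 (95% interval 0.33 to 0.93, limma adjusted p = 0.0160), larger in size than that of 80.7% of tested genes. Without control replicate 3 it was 0.55 and not called (limma adjusted p = 0.0565), and scaling to spike-in RNA gave 0.38 (limma adjusted p = 0.0824).

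In the bile acid branch Nr0b2 fell, and Nr1h4 and Nr5a2 did not pass the test. Nr1h4, encoding FXR, had scaled signals of 18.4, 15.6 and 18.4 in PCN rats, against 14.4, 11.7 and 15.0 in control rats. Every PCN value was above every control value, by 0.06 log2 units at the nearest pair. On the log2 scale the difference was 0.36 ± 0.14 (95% interval 0.03 to 0.68), which had an unadjusted p of 0.0355 in limma and missed the threshold after adjustment (adjusted p = 0.115). Its second probe gave 0.16 ± 0.12, and there the groups overlapped. With median scaling the first probe gave 0.56 and passed (limma adjusted p = 0.0281). With spike-in scaling it gave 0.11 and with quantile normalization 0.28, and it passed in neither (limma adjusted p = 0.546 and 0.176).

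Nr0b2 encodes SHP, a repressor without a DNA-binding domain that is induced by FXR. Its scaled signal was 4.37, 6.82 and 9.46 in PCN rats, against 33.4, 11.3 and 23.5 in control rats. All 3 PCN rats lay below all 3 control rats, and 0.25 log2 units separated PCN rat 3 from control rat 2. The log2 fold change was −1.66 ± 0.44, which is 0.317 times the control level (95% interval 0.152 to 0.658 times, limma adjusted p = 0.0425). This was larger in size than 97.2% of tested genes, and the within-group SD of 0.69 was larger than that of 97.6% of them. The 2 spots of the probe differed by an SD of 0.02 within an array, which does not separate rats from RNA preparation or hybridisation.

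The call for Nr0b2 was close to the threshold. It ended with median scaling (log2 fold change −1.45, limma adjusted p = 0.0518), with no filter and with the replicate block. It also ended without control replicate 1 (log2 fold change −1.31), without control replicate 3 (−1.57), without PCN replicate 1 (−1.37) and without PCN replicate 2 (−1.69), with limma adjusted p between 0.0961 and 0.116 in these 4 fits. Its direction was the same in all 19 alternatives, where it ranged from −2.10 to −1.31.

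LRH-1 is known to act on the Nr0b2 promoter through sites with the core TCAAGG, so this promoter is shown with that core in capitals. The window is the 250 bases before the start in RefSeq, GRCr8 chr5:151062910-151063159, plus strand.
Nr0b2: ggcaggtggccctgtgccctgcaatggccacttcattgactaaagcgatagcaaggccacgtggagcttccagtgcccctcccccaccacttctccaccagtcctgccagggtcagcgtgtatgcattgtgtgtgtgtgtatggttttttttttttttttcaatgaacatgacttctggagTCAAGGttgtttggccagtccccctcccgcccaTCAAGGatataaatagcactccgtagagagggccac
The core begins 69 and 36 bases before the start, and 12.6% of all promoter windows hold it at least once on either strand. Of the 9 members with a promoter window in the table used, only Nr0b2 and Ahr (1 match) held this core. A match shows these letters and not binding.

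Nr5a2, which encodes LRH-1 itself, had scaled signals of 0.915, 0.817 and 1.02 in PCN rats, against 0.899, 0.878 and 0.706 in control rats. The groups overlapped, and the log2 fold change was 0.15 ± 0.14 (95% interval −0.19 to 0.48, limma adjusted p = 0.50). Its second probe gave 0.05 ± 0.13.

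The sterol and fatty acid sensors did not pass the test. Nr1h3, encoding LXR alpha, had scaled signals of 22.2, 18.8 and 23.7 in PCN rats, against 17.8, 18.3 and 20.7 in control rats. PCN rats 1 and 3 lay above all controls and PCN rat 2 among them. PCN minus control was 0.18 ± 0.13 (95% interval −0.12 to 0.49, limma adjusted p = 0.355). Ppara had 0.578, 0.703 and 0.608 in PCN rats, against 0.698, 0.539 and 0.581 in control rats, interleaved between groups. Its log2 fold change was 0.06 ± 0.14 (95% interval −0.27 to 0.39, limma adjusted p = 0.801), which allows 0.830 to 1.31 times the control level.

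**Figure D2:**
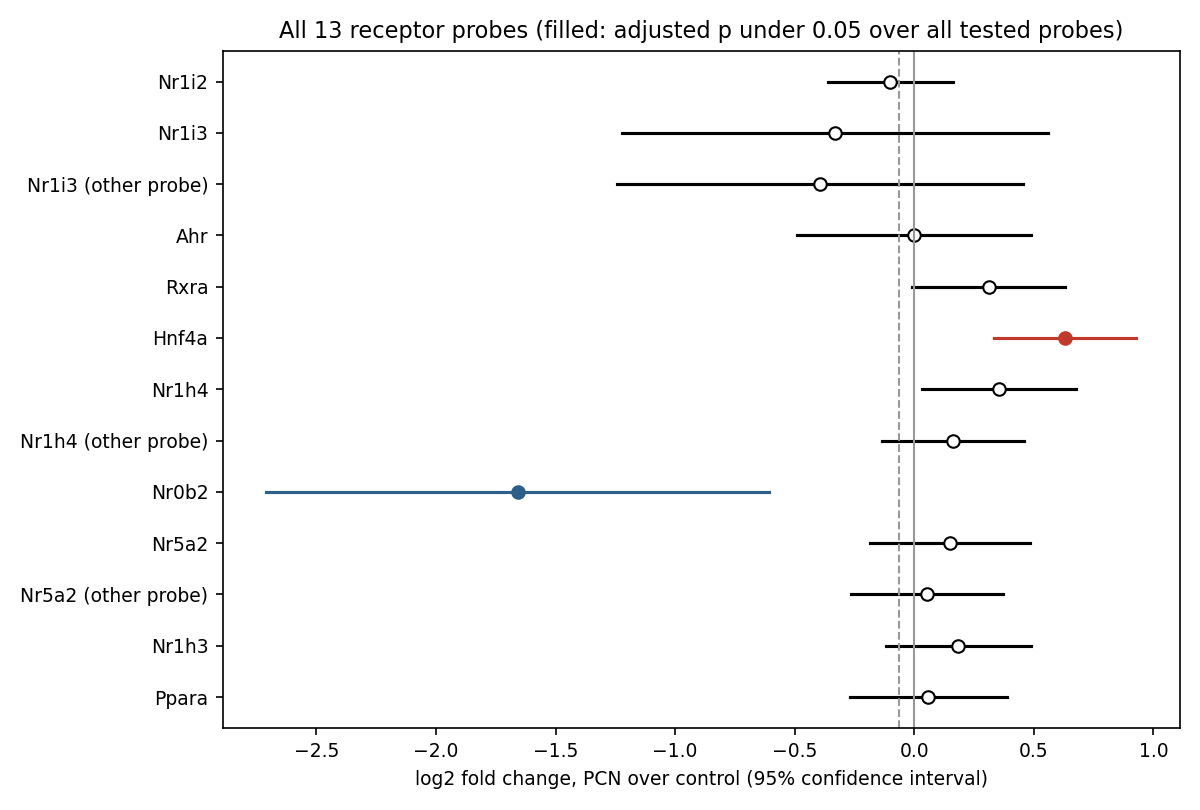
Log2 fold change, PCN over control (horizontal axis), of all 13 receptor probes with its 95% confidence interval, filled where the adjusted p over all tested probes is under 0.05. The solid line is 0 and the dashed line is −0.06, the median of all tested genes; the Nr1i2 interval is narrow around both, and the Nr1i3 and Nr0b2 intervals are the widest.

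Between them the intervals show how differently the members were measured. Among the 8 members that did not pass, the Nr1i2 interval was the narrowest and the Nr1i3 interval the widest. The upper bounds for Ahr, Nr5a2 and Nr1h3 were each 1.40 times the control level. For Rxra and Nr1h4 they were 1.55 and 1.60 times.

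The profiles most like those of the PXR and CAR genes were found by the root mean square difference of centred log2 values over the 6 arrays. Of 10034 other named genes, Tmco4, Rhoh and Cdk19 were nearest to Nr1i2 (0.02, 0.03 and 0.03 log2 units). RT1-A1 and RT1-S2, both class I histocompatibility genes, and Fam25a were nearest to Nr1i3, at 0.14, 0.14 and 0.15. With 6 arrays and many genes close matches are easily found, and they are given as a description.

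Known target genes of each receptor were then set beside the receptor. For PXR and CAR, 19 of 25 tested targets rose, 1 fell and 5 did not pass, with a median of 1.44, while the receptors gave −0.10 and −0.33. Log2 fold changes on this list ran from −4.26 to 4.84. Of all tested genes, 4.37% were called higher and 15.5% lower. Besides Cyp3a23-3a1, the targets with the smallest adjusted p were Cyp3a18 (8.58-fold), the carboxylesterase Ces2c (log2 fold change 3.08 ± 0.17) and the uptake transporter Slco1a4 (10.6-fold). Their limma adjusted p lay between 1.77e-04 and 3.56e-04. Cyp2b2, the classic CAR-responsive P450, was looked at because Nr1i3 varied so widely, and its values were known when it was chosen. It had log2 scaled signals of 4.98, 5.14 and 5.37 in PCN rats, against 2.52, 2.95 and 2.09 in control rats, without overlap between the groups. The groups did not overlap in 41.4% of all tested genes, and 14.7% of all tested genes were without overlap and higher with PCN. CAR activity itself was not tested.

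**Figure D3:**
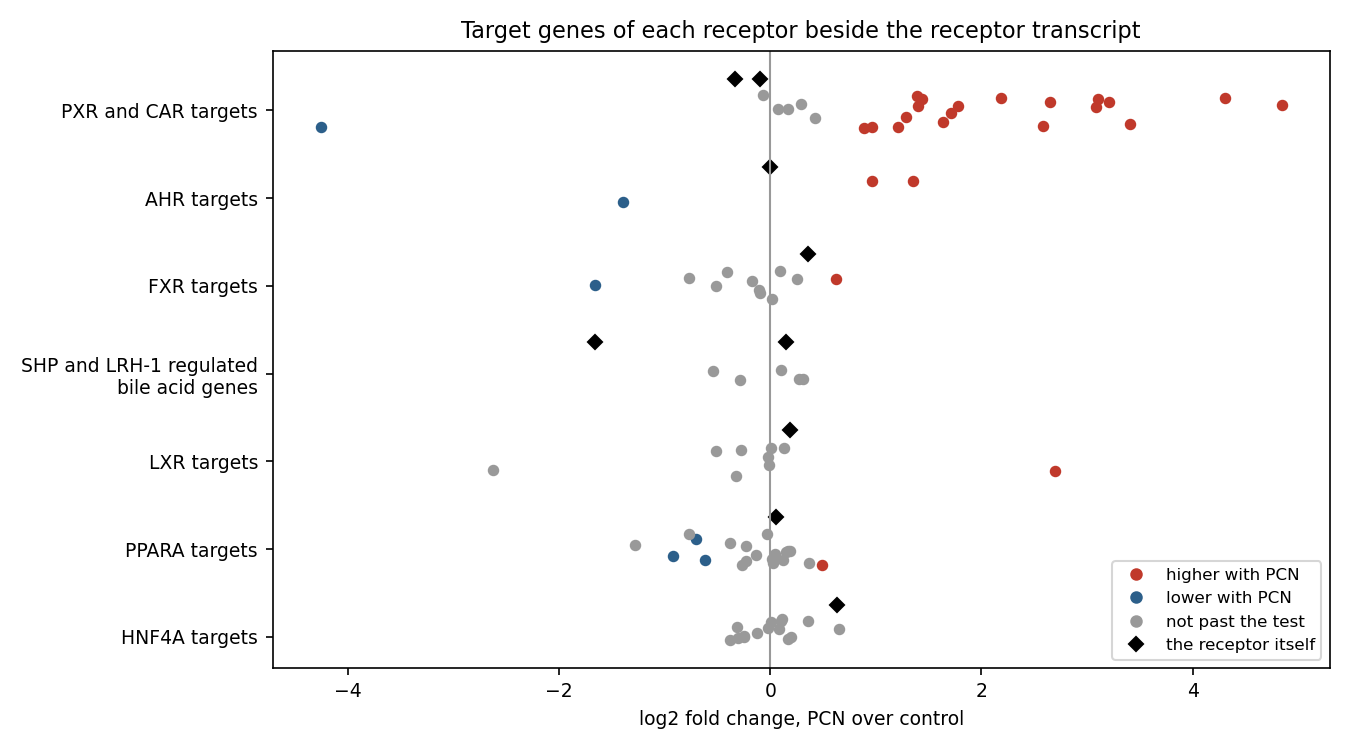
Log2 fold change, PCN over control (horizontal axis), of the tested target genes of each receptor (circles, coloured where called) with the receptor transcript above them (black diamonds). The PXR and CAR targets lie mostly to the right while their receptors lie near 0; the HNF4A targets lie around 0 while Hnf4a lies at 0.63.

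For AHR, 3 of 8 targets were tested and all 3 were called, in both directions, while Ahr gave 0.00. Of all tested genes, 19.9% were called. Ugt1a6, a glucuronosyltransferase, rose by 1.35 ± 0.13, Nqo1, a quinone reductase, rose by 0.96 ± 0.23, and Cyp1a2, a constitutive hepatic P450, fell by 1.39 ± 0.27 (limma adjusted p = 1.46e-03, 0.0277 and 0.0149). Cyp1a1, the most AHR-specific of the list, did not pass the detection filter. The call for Cyp1a2 ended without control replicate 1 or 2 (limma adjusted p = 0.0516 and 0.0502), and that for Nqo1 with spike-in scaling (0.72, limma adjusted p = 0.0627), no filter or the replicate block, or when control replicate 1 or 2, or PCN replicate 1 or 2, was left out (between 0.0764 and 0.0849).

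For FXR, 1 of 11 tested targets rose, 1 fell and 9 did not pass, with a median of −0.11 that turned to 0.10 with median scaling. Abcb11, the bile salt export pump, rose by 0.62 ± 0.13 (limma adjusted p = 0.0199). The gene that fell was Nr0b2, and Nr1i2 is also on this list. This is 2 of 11 called, a share near the 19.9% of all tested genes. The calls were 2 higher and 0 lower with median scaling, 0 higher and 3 lower with spike-in scaling, and 0 with the replicate block or no filter. The Abcb11 call ended with spike-in scaling (0.38, limma adjusted p = 0.0850), with the replicate block and with no filter, and also when control replicate 1 or 3, or PCN replicate 1 or 3, was left out (limma adjusted p between 0.0549 and 0.0700).

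Of 5 bile acid genes held down by SHP or driven by LRH-1, 0 passed the test in limma, where 19.9% of all tested genes were called. An unadjusted p under 0.05 was reached by 0 of the 5, against 34.5% of all tested genes, and Nr0b2 was lower. The median of the 5 was 0.10, turning to −0.14 with scaling to the spike-ins. It was −0.31 without PCN replicate 1 and 0.30 without PCN replicate 2. Median scaling gave 1 higher call. Slc10a1, the main bile salt uptake carrier, gave 0.27 ± 0.12 and Cyp27a1, of the alternative synthesis route, 0.31 ± 0.18 (limma adjusted p = 0.176 and 0.278).

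For LXR alpha, 1 of 9 tested targets rose and 8 did not pass, where 19.9% of all tested genes were called. The median was −0.03, which turned to 0.18 with median scaling. The one that rose was Abcg5, a subunit of the sterol exporter, by 2.69 ± 0.18 (limma adjusted p = 3.58e-04). Of the 8 that did not pass, 2 had an unadjusted p under 0.05, and both are named after their values were seen. Scd, a fatty acid desaturase, gave −2.63 ± 1.01, and Pltp, a phospholipid transfer protein, −0.51 ± 0.17 (limma adjusted p = 0.117 and 0.0790). Spike-in scaling, normexp, and leaving out PCN replicate 1 or 3 each gave 1 lower call on this list.

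For PPARA, 1 of 20 targets rose and 3 fell, with a median of −0.08 that turned to 0.12 with median scaling, while Ppara gave 0.06. This is 4 of 20 called, a share near the 19.9% of all tested genes. The calls were 3 higher and 3 lower with median scaling, and 0 higher and 6 lower with spike-in scaling. The fatty acid hydroxylases Cyp4a1 and Cyp4a8 fell by 0.62 ± 0.11 and 0.92 ± 0.17, and Angptl4, an inhibitor of lipoprotein lipase, fell by 0.71 ± 0.13 (limma adjusted p = 0.0122, 0.0129 and 0.0126). Acaa1a, a thiolase of peroxisomal fatty acid oxidation, rose by 0.49 ± 0.12 (limma adjusted p = 0.0279). That call ended with spike-in scaling (0.25, limma adjusted p = 0.224), the replicate block and no filter, and when control replicate 1 or 2, or PCN replicate 2 or 3, was left out (limma adjusted p between 0.0609 and 0.0900).

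For HNF4A, 0 of 15 targets passed the test in limma, where 19.9% of all tested genes were called, and Hnf4a was higher. Of the 15, 2 had an unadjusted p under 0.05, against 34.5% of all tested genes. The clotting factor gene F7 gave −0.31 ± 0.12 (limma adjusted p = 0.127). The median of the 15 was 0.01, and it turned to −0.24 with scaling to the spike-ins and to −0.05 with quantile normalization. Median scaling gave 1 higher call and spike-in scaling 2 lower calls.

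Of 22 other nuclear receptors that were tested, 1 rose, 2 fell and 19 did not pass, with a median of −0.03, which turned to 0.18 with median scaling and to 0.08 with quantile normalization. That is 3 of 22 called, where 19.9% of all tested genes were called. The calls were 3 higher and 1 lower with median scaling, 1 higher and 6 lower with spike-in scaling, and 1 higher and 0 lower with the replicate block. Thrb, a thyroid hormone receptor, rose by 0.88 ± 0.15 in limma (adjusted p = 0.0108). It was called in all 19 alternatives, with a value of 0.39 under normexp and 1.19 under quantile normalization. Ppard, a fatty acid receptor related to PPARA, fell by 0.94 ± 0.18 (limma adjusted p = 0.0143). With normexp background correction Ppard gave −0.24 and was not called, nor was it without control replicate 1 (limma adjusted p = 0.0525). Nr3c1, the glucocorticoid receptor, fell by 0.55 ± 0.12 (limma adjusted p = 0.0235), but gave −0.27 and no call as the mean of its probes. Its call also ended when control replicate 2 or 3, or PCN replicate 1 or 3, was left out (limma adjusted p between 0.0627 and 0.0786). The remaining RXR genes gave −0.09 ± 0.12 for Rxrb and −0.56 ± 0.21 for Rxrg, named after their values were seen, and neither passed (limma adjusted p = 0.630 and 0.114).

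The proteins that hold CAR and AHR in the cytosol or pair with AHR gave 2 rises among 12 tested genes and 0 falls, with a median of 0.18 that turned to −0.07 with scaling to the spike-ins. This is 2 of 12 called, where 19.9% of all tested genes were called. There were 5 rises with median scaling and 0 with spike-in scaling or the replicate block. Hsp90aa1, a chaperone, rose by 0.57 ± 0.11 and Arnt, the DNA-binding partner of AHR, by 0.68 ± 0.18 (limma adjusted p = 0.0131 and 0.0422). Arnt was well above background on 2 of 3 control arrays, and its call ended in 5 of 6 fits with 1 array left out, all but that without PCN replicate 2 (limma adjusted p between 0.0797 and 0.123). Hsp90aa1 was not called with spike-in scaling (0.32, limma adjusted p = 0.165), with the replicate block (adjusted p = 0.0548) or without control replicate 3 (adjusted p = 0.0524). Arnt gave 0.27 with normexp and was not called there (limma adjusted p = 0.162), nor with spike-in scaling, no filter, an eBayes trend or the replicate block.

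Of 12 tested coregulators 0 rose and 1 fell, with a median of −0.05 that turned to 0.16 with median scaling. This is 1 of 12 called, against 19.9% of all tested genes. The direction of the calls depended on the scaling, with 2 higher and 0 lower under quantile normalization and cyclic loess, 2 higher and 1 lower under median scaling, 0 higher and 3 lower under spike-in scaling, and 0 calls with normexp or the deposited table. Ppargc1a, a coactivator of PPARA, HNF4A and other receptors, fell by 1.62 ± 0.41 (limma adjusted p = 0.0366). Ppargc1a was called in 10 of 19 alternatives. With normexp it gave −0.48 and was not called, nor was it with quantile normalization, cyclic loess, the deposited table or no filter. Its call also ended without control replicate 3 or any 1 of PCN replicates 1 to 3 (limma adjusted p between 0.0752 and 0.0908). Of 11 other hepatocyte transcription factors 0 passed the test in limma, against 19.9% of all tested genes. An unadjusted p under 0.05 was reached by 2 of the 11, against 34.5% of all tested genes. The median of the 11 was −0.04, turning to 0.16 with median scaling. Median scaling gave 1 higher call on this list and spike-in scaling 2 lower calls. The stress regulator Xbp1 gave 0.90 ± 0.26 (limma adjusted p = 0.0530). Xbp1 was called in 5 of 19 alternatives, median scaling and normexp among them.

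**Figure D4:**
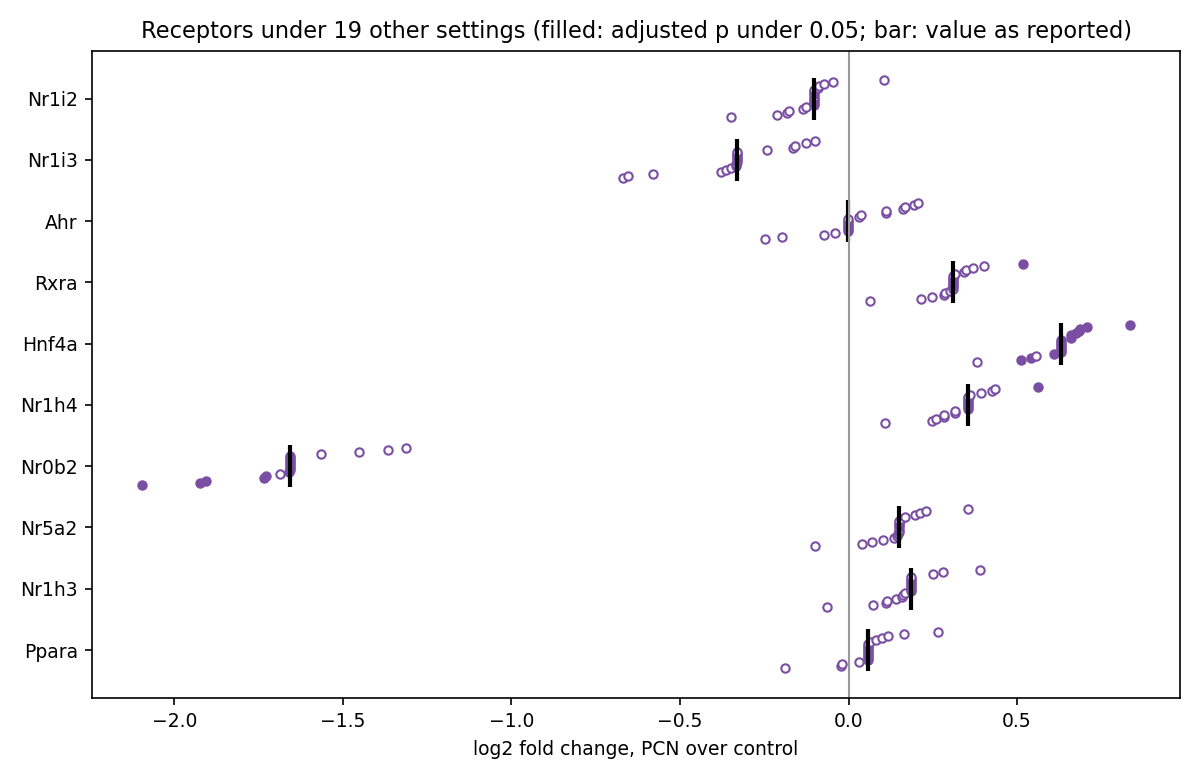
Log2 fold change, PCN over control (horizontal axis), of each receptor gene under the 19 alternative settings (circles, filled where the adjusted p is under 0.05), with the value as reported as a black bar. Hnf4a and Nr0b2 keep their direction under all 19 and are called in 15 and 12 of them; Nr1i2 and Nr1i3 are called in 0, and Nr1i2 crosses 0 once.

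The direction of the members with small differences depended on the scaling. Under median scaling Nr1i2 gave 0.11 (limma adjusted p = 0.456), and under spike-in scaling Nr1h3, Nr5a2 and Ppara gave −0.06, −0.10 and −0.19. Nr1i3, Rxra, Hnf4a, Nr1h4 and Nr0b2 kept their direction in all 19 alternatives.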

How the data were processed

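The authors deposited 1 Agilent scanner file per array, which the file headers give as output of Feature Extraction 10.7.3.1. The deposited intensity used is the processed signal, which the software had already background-subtracted within the array. The marks of other kinds used to leave out outlier spots and to judge detection are also deposited, per the file headers. The authors' deposited value table is a linear ratio, the processed signal over the 75th percentile of the array.

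From these, log2 of the processed signal over the 75th percentile of non-control spots was taken (R 4.3.3), and spots of a probe were averaged. A probe was tested if at least 0.5 of its spots were well above background on all 3 arrays of a group, leaving 18329 probes. Naming went through transcript accessions in a RefSeq table of assembly GRCr8, whereas the array design names rn4. A gene is its brightest tested probe; other probes come from a fit over all tested probes. Both groups were fitted with limma 3.58.1 (lmFit, eBayes, no covariate, two-sided), with Benjamini-Hochberg adjustment over all tested genes. The number of arrays limits precision. The labels call the samples biological replicates. The fit was tested on simulated data. Normexp used median spot signals, as the files have no mean signal.

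All 10 members are named whatever their values; from each other list up to 4 called genes, or 2 where none was, are named by smallest adjusted p. Members, lists, motifs and tests were chosen with earlier results of these data known. Targets, coregulators and markers come from textbook knowledge. One gene that this rule names is not reported here.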

Additional observations from a re-analysis of the deposited data

How the results depend on the processing

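Of 10 receptor genes 2 were called, and 0 with the replicate block or with no filter on dim probes, 1 with scaling to spike-ins and 3 with median scaling (Hnf4a, Rxra and Nr1h4 higher, 0 lower, since Nr0b2 lost its call there). With 1 array left out the count was 0 to 2, and 0 without control replicate 3. Of all tested genes 3263 were called, 1967 with no filter, 2067 with the replicate block, and 2023 to 2592 with 1 array left out. Calls were 78.1% lower, against 41.0% with median scaling, 96.4% with spike-in scaling, 66.0% with quantile normalization and 64.4% with normexp, and median and spike-in scaling moved the median of all genes by 0.21 and −0.25. Same-numbered arrays did not deviate together (correlations of −0.10, −0.03 and −0.05), and the numbers were taken as sample names only. The labels do not say whether same-numbered rats were paired. Under the block Hnf4a had limma adjusted p = 0.0641 and Nr0b2 0.0818.

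Ahr, at 0.00, changed sign with cyclic loess (0.16), the deposited table (0.037), median scaling (0.21), normexp (0.11), quantile normalization (0.19), and without PCN replicate 1 or control replicate 1 or 2 (leave-one-out range −0.20 to 0.17). Nr1i2 turned to 0.11 with median scaling. With spike-in scaling Nr1h3 turned to −0.064, Nr5a2 to −0.10 and Ppara to −0.19, and Ppara to −0.023 and −0.021 without PCN replicate 2 and without control replicate 2, over a range up to 0.17. These results were not called under any of these settings. The cause was not tested.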
